A study of Mus musculus with 6 samples.

Results

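The genes described here are 9 transcription factor genes that direct the fate of T cells, namely Tbx21, Eomes, Gata3, Bcl6, Stat4, Runx3, Prdm1, Tox and Tcf7. They were taken by symbol from a count table of 55487 genes, and each symbol matched 1 row. All 9 had enough reads for the test across genes, which covered 15114 genes. RNA had been sequenced from 6 subcutaneous tumors, 3 of a control group and 3 of an IFN-γ group. The tumors grew from CT26.WT, a colon carcinoma line of BALB/c mice, in BALB/c hosts labelled wild type (WT). According to the methods, the hosts were males of 4 weeks with an intact immune system. Each mouse of the IFN-γ group had 100 µL of an IFN-γ solution (100 ng/ml) injected into the tail vein, with 48 h between injections, and PBS was injected in the control group. Tumors were followed until they measured 1.5 cm across. Tumor cells and host cells were sequenced together, so the values are those of whole tumors. According to the methods each mouse was injected at a single place on the back, but no label ties a tumor to a mouse, and the p-values measure the spread between these tumors.

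T cells take on specialised roles under the control of such factors. IL-12, acting through STAT4, and IFN-γ both favour T-bet, the product of Tbx21, which drives the type 1 program of helper cells and the genes for cytotoxic effectors. Eomesodermin, encoded by Eomes, is a T-box relative of T-bet used by CD8+ T cells and NK cells, and RUNX3 keeps CD8+ T cells on the cytotoxic path. GATA3 drives type 2 helper cells, BCL6 drives follicular helper cells, and BLIMP-1, the product of Prdm1, opposes BCL6. TCF-1, the product of Tcf7, maintains naive, memory and progenitor-like T cells, and TOX sustains exhausted CD8+ T cells in tumors. None of these factors is confined to T cells. Runx3 and Prdm1 also act in macrophages and dendritic cells, Gata3 in skin epithelium and innate lymphocytes, and Bcl6 in B cells, macrophages and fat.

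The promoters were read for short motifs, because several of these genes belong to pathways that interferon feeds. RefSeq gave promoters for 8 of the 9 genes, 12 in all on GRCm38.p6, each running from 250 bases before a start site to 50 bases after it, and Tox had no entry. In 9 of the 12, the bases after the start matched a transcript of the gene in GENCODE M21. The gamma-activated site, a motif of promoters that respond to IFN-γ, was searched as TTCNNNGAA, which reads alike on both strands. It was present in 8.30% of the 32851 promoters of the RefSeq table and, among these genes, in Bcl6 alone. Bcl6 had it once before its upstream start and at 3 places before its downstream start, and only 11 promoters of the table, or 0.0335%, held 3 or more matches. The 4 stretches are shown in the direction of the gene, which lies on the minus strand, with the matching letters in capitals.
Bcl6, upstream start, chr16:23988952-23988979: gcaaattagTTCTCAGAAttccagaggc
Bcl6, downstream start, chr16:23981433-23981460: ggccgcggcTTCCTGGAAagttacttct
Bcl6, downstream start, chr16:23981387-23981414: gcaggagtgTTCTGTGAAatccttagag
Bcl6, downstream start, chr16:23981353-23981380: tcgactacgTTCCGGGAAtgagagggct

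Interferon regulatory factors bind the interferon-stimulated response element. Its core, searched on both strands as a pair of GAAA blocks with 2 bases between them, was found in 3.44% of all promoters. Stat4 and Eomes each had 1 such match, both on the plus strand and both upstream of a start site. For Stat4 that start, chr1:52008240, lies inside the gene, downstream of its first start at chr1:51987148.
Stat4, chr1:52008134-52008161: atgtcttcaGAAAGTGAAAtttagaacg
Eomes, chr9:118478026-118478053: aagctaagaGAAAATGAAActcgcaggc
The core letters of RUNX sites, TGTGGT, occurred in 16.8% of all promoters and at 2 neighbouring places in a promoter of Runx3, on the opposite strand. The first of them is shown in capitals, and the second lies in the same stretch as the accaca in lower case.
Runx3, chr4:135120500-135120527: ctggtccctcaACCACAgaaccacaagg
A GATA motif (AGATAA, 11.2% of all promoters), a TCF motif (CTTTGAT, 3.73%) and a T-box motif (GGTGTGA, 3.98%), each searched on both strands, had no match in the 12 promoters. No match overlapped a match of another motif. Such matches describe letters in a window and do not show binding.

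The 6 libraries held from 15759300 to 17559680 counts on genes. A count of 0 would allow a level of up to 0.187 CPM (counts scaled to library size, with TMM factors) in the shallowest library, counting error only, and every one of the 9 genes lay above that level in every tumor. The T cell label was checked against a list of T cell genes written from general knowledge (receptor, coreceptor and proximal signaling genes). Of its 21 genes, 20 were in the table, and none of the 20 was limited to 3 or fewer counts. Summed over the list, the level was 158, 212 and 194 CPM in control tumors 1, 2 and 3. The 3 IFN-γ tumors gave sums of 254, 305 and 112 CPM in the same order. IFN-γ tumor 3 therefore had the lowest T cell level of the 6 tumors, and the other IFN-γ tumors had the highest. Thy1 was the largest single part of each sum. It gave 54.4, 55.1 and 58.8 CPM in the controls and 57.2, 63.7 and 34.0 CPM in the IFN-γ tumors. The mean log2 level of the 20 genes, in which each gene weighs the same, had the same lowest and highest tumors. NK cell markers followed the same order at its ends, with 103, 117 and 35.9 CPM in the IFN-γ tumors against 47.8 to 73.7 CPM in the controls. IFN-γ tumor 3 also had 82.3 CPM of a skin epithelium list that summed to between 7.25 and 16.4 CPM in the other tumors. In whole tumors, fewer T cells and less RNA per T cell cannot be told apart. The study describes its own RNA-seq comparison with fewer IFN-γ tumors than were deposited and does not name those it used. Because IFN-γ tumor 3 stood apart, fold changes are given with and without it.

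None of the 9 genes passed the threshold between the IFN-γ and control groups, and in all 9 the 2 groups overlapped. In edgeR's quasi-likelihood test (adjusted p under 0.05 over all genes), 17 of the 15114 genes tested passed, or 0.112%, so a small list with no call stands near the background. At an unadjusted p under 0.05 the number was again 0 of 9, against 10.2% of all genes, and it was 0 of 9 with DESeq2 and with limma-voom. Groups that do not overlap were found in 15.1% of all genes tested. The smallest adjusted p of the 9 was 0.718, that of Tox.

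**Figure D1:**
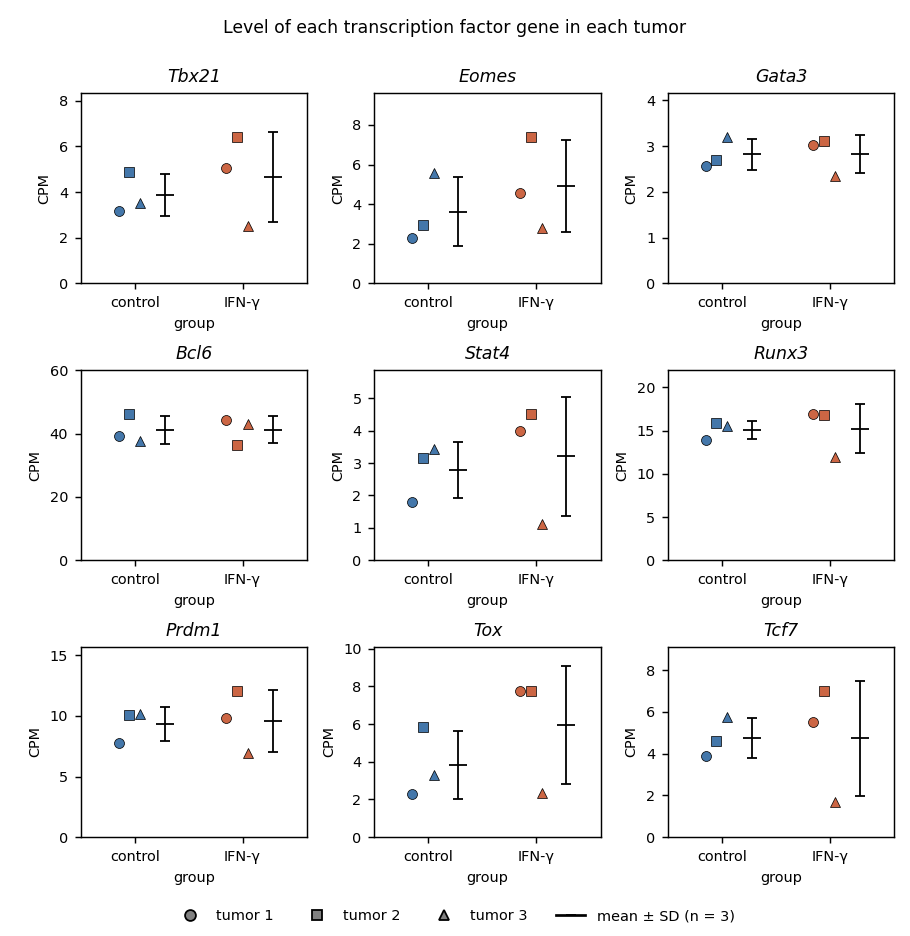
Level of the 9 genes in CPM in each of the 3 control and 3 IFN-γ tumors, with a vertical axis from 0 in each panel; symbols mark the tumor number, and the black bars give the mean ± SD of 3 tumors. In every panel the groups overlap, and for Tcf7 the low IFN-γ triangle is tumor 3, at 1.67 CPM.

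Among the genes of the type 1 and cytotoxic program, Stat4, which relays the IL-12 signal, was at 1.81, 3.15 and 3.42 CPM in control tumors 1, 2 and 3. IFN-γ tumors 1, 2 and 3 had 4.0, 4.51 and 1.11 CPM of it. IFN-γ tumors 1 and 2 were the highest of the 6 and IFN-γ tumor 3 was the lowest, with 18 counts. The log2 fold change was 0.20 (standard error, SE, 0.48, adjusted p = 0.929, edgeR). Tbx21, encoding T-bet, was at 3.18, 4.90 and 3.54 CPM in the controls and at 5.04, 6.41 and 2.53 CPM in the IFN-γ tumors. The ends of the order were the same as for Stat4, with IFN-γ tumors 1 and 2 at the top and IFN-γ tumor 3 at the bottom. The log2 fold change of Tbx21 was 0.27 (SE 0.35, adjusted p = 0.849, edgeR). The estimate for Tbx21 was -0.034 when IFN-γ tumor 2 was left out.

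Eomes was at 2.31, 2.93 and 5.59 CPM in the controls and at 4.58, 7.38 and 2.78 CPM in the IFN-γ tumors. Its order differed from that of Tbx21, since control tumor 3 stood second and control tumor 1 was the lowest. The log2 fold change was 0.44 (SE 0.43, adjusted p = 0.788, edgeR), and it was 0.025 without IFN-γ tumor 2 and 0.89 without control tumor 3. Runx3, which has more reads, was at 13.9, 15.9 and 15.5 CPM in the controls and at 16.9, 16.8 and 11.9 CPM in the IFN-γ tumors. IFN-γ tumors 1 and 2 were again the highest and tumor 3 the lowest, over a range of 1.42-fold. Its log2 fold change was 0.013 (SE 0.16, adjusted p = 0.992, edgeR), and it was -0.019 with library sizes alone in place of TMM factors.

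Gata3, the type 2 factor, was at 2.56, 2.70 and 3.20 CPM in the controls and at 3.01, 3.11 and 2.35 CPM in the IFN-γ tumors. The tumors lay close together, with 38 to 56 counts each and a highest-to-lowest ratio of 1.36. Of the 1328 genes tested with a mean level within 1.5-fold of that of Gata3, 4.89% had a smaller range on the log2 scale. Its log2 fold change was 0.0022 (SE 0.23, adjusted p = 1, edgeR) and took both signs across the scalings tried. Gata3 is also a factor of skin epithelium, and in IFN-γ tumor 3, where the skin list was highest, Gata3 was at its lowest level. Only 2 of the 10 skin genes had enough reads for the test, and the part of skin in the level of Gata3 was not tested.

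Tox and Tcf7 are tied to different states of tumor-infiltrating CD8+ T cells, exhausted and progenitor-like. Tox was at 2.31, 5.86 and 3.31 CPM in the controls and at 7.77, 7.75 and 2.35 CPM in the IFN-γ tumors. IFN-γ tumors 1 and 2 exceeded every control, whereas tumor 3 lay beside control tumor 1 at the bottom. Its log2 fold change, 0.63 (SE 0.48, adjusted p = 0.718, edgeR), was the largest of the 9 and stayed above 0 in every fit run, from 0.38 without control tumor 1 to 1.08 without control tumor 2. Tcf7 was at 3.87, 4.62 and 5.76 CPM in the controls and at 5.51, 7.02 and 1.67 CPM in the IFN-γ tumors. The last value came from 27 counts, against 62 to 115 counts in the other 5 tumors. The highest-to-lowest ratio, 4.21, was the widest of the 9 genes. The log2 fold change of Tcf7 was -0.0062 (SE 0.44, adjusted p = 0.999, edgeR) and ran from -0.40 without IFN-γ tumor 2 to 0.39 without IFN-γ tumor 3.

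Bcl6 and Prdm1 encode a pair of mutually opposed repressors. Bcl6 was at 39.3, 46.2 and 37.7 CPM in the controls and at 44.2, 36.2 and 43.0 CPM in the IFN-γ tumors. Its lowest tumor was IFN-γ tumor 2, where the T cell list was highest, and the whole range was 1.27-fold. With 594 to 820 counts per tumor it was the best measured of the 9, and its log2 fold change was 0.0032 (SE 0.11, adjusted p = 0.998, edgeR), with a sign that turned under other scalings. This gene, with matches to the gamma-activated site in both promoters, had mean levels of 41.1 ± 4.50 CPM in the control group and 41.1 ± 4.30 CPM in the IFN-γ group (SD, n = 3 each). Prdm1 was at 7.74, 10.1 and 10.2 CPM in the controls and at 9.80, 12.1 and 6.92 CPM in the IFN-γ tumors. It had the same ends as the T cell list, with IFN-γ tumor 2 highest and tumor 3 lowest, and a log2 fold change of 0.041 (SE 0.22, adjusted p = 0.976, edgeR).

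IFN-γ tumor 3 was the lowest of the 6 tumors for 6 of the 9 genes, namely Tbx21, Gata3, Stat4, Runx3, Prdm1 and Tcf7, and the lowest in 21.3% of all genes tested. It was also the lowest for 18 of the 20 T cell genes. Without it, the log2 fold changes of 8 of the 9 genes were above 0 and that of Bcl6 was -0.037. They were 1.0 for Tox (SE 0.34, adjusted p = 0.180, edgeR), 0.71 for Eomes (SE 0.38, adjusted p = 0.412) and 0.59 for Stat4 (SE 0.30, adjusted p = 0.395). They were 0.55 for Tbx21 (SE 0.26, adjusted p = 0.340, edgeR) and 0.39 for Tcf7 (SE 0.24, adjusted p = 0.487), and 0.22, 0.15 and 0.11 for Prdm1, Runx3 and Gata3. None passed the adjusted threshold, where 3.18% of the 15487 genes tested did. Tox alone had an unadjusted p under 0.05 in edgeR's test, which 16.3% of all genes had. In Tox, Tbx21, Stat4 and Runx3, 4 of the 9, both remaining IFN-γ tumors lay above the 3 controls, which held for 18.1% of all genes. This fit was singled out after the low T cell level of IFN-γ tumor 3 was seen. That choice by itself raises the estimates of genes that were low in that tumor.

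**Figure D2:**
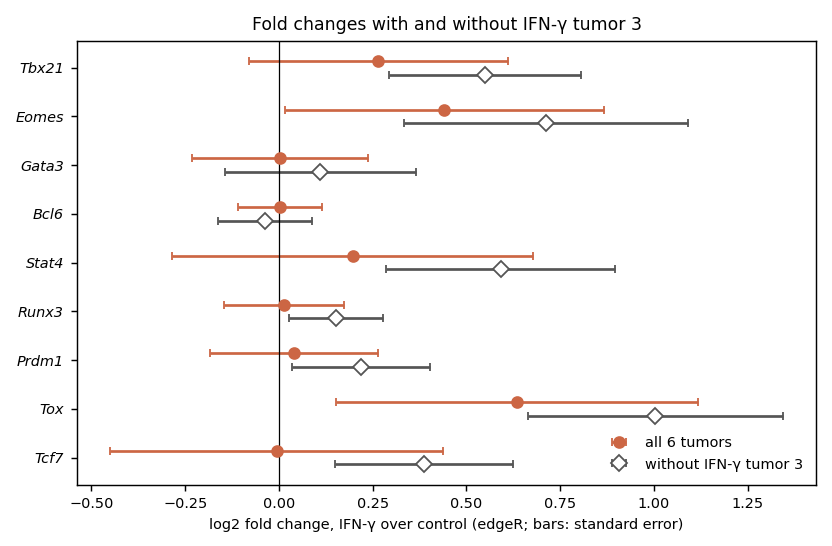
Log2 fold change of each gene, IFN-γ over control, from edgeR with all 6 tumors (filled circles) and without IFN-γ tumor 3 (open diamonds); bars are standard errors. All estimates but that of Bcl6 lie further to the right without IFN-γ tumor 3, with Tox moving from 0.63 to 1.0, and none of them passed the adjusted threshold in either fit.

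The spread over tumors differed among the genes. Tcf7, Stat4, Tox, Eomes and Tbx21 ranged over 4.21-, 4.06-, 3.36-, 3.20- and 2.53-fold from the lowest to the highest tumor. Prdm1, Runx3, Gata3 and Bcl6 ranged over 1.75-, 1.42-, 1.36- and 1.27-fold. Among genes of like mean level (within 1.5-fold), 95.0% had a smaller log2 range than Tcf7, 92.6% a smaller one than Stat4 and 91.7% a smaller one than Tox. The shares were 89.6% for Eomes, 81.2% for Tbx21, 70.7% for Prdm1, 53.5% for Runx3 and 50.8% for Bcl6, so the last pair had ranges usual for their level. Against the control mean, Tox was at 1.02 on the log2 scale in both IFN-γ tumor 1 and IFN-γ tumor 2, and Tcf7 at -1.51 in IFN-γ tumor 3.

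**Figure D3:**
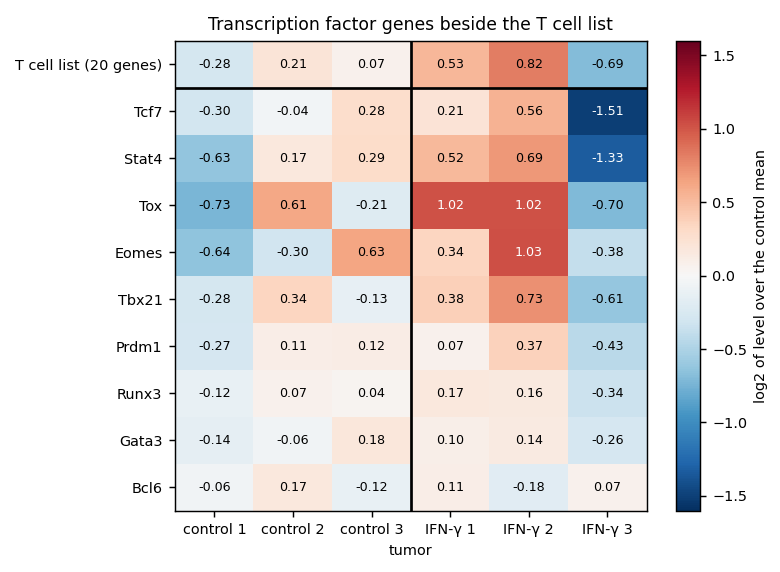
Log2 of the level in each tumor over the control mean, for the mean of 20 T cell genes (top row) and for the 9 genes below it, in columns for the 3 control and 3 IFN-γ tumors; red is above and blue below the control mean. The T cell row runs from -0.69 in IFN-γ tumor 3 to 0.82 in IFN-γ tumor 2, Tcf7, Stat4, Tbx21 and Prdm1 have their highest and lowest tumors in the same columns, and Bcl6 in the bottom row stays between -0.18 and 0.17.

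Over the 6 tumors, Tbx21 had a median Pearson r of 0.937 with the 20 T cell genes (log2 levels), Stat4 of 0.915, Prdm1 of 0.909, Runx3 of 0.906, Tox of 0.890 and Tcf7 of 0.877. The median was 0.777 for Gata3, 0.716 for Eomes and -0.27 for Bcl6. These are descriptions of 6 points that share library depth and the low IFN-γ tumor 3, and for Tbx21 453 of 14044 other genes also had an r over 0.9. By this measure, the genes most like Runx3 were Ikzf3 (r = 0.996), a lymphocyte zinc finger factor, Nipsnap3b (0.994) and Casp4 (0.993). Those most like Prdm1 were Slamf1 (0.993), a lymphocyte and myeloid receptor, Opn3 (0.991) and Cd7 (0.991), a T and NK cell surface protein. For Tbx21 they were Cmip, Lrrc25 and Maml2 (0.995 to 0.996), for Stat4 Eng, Adgrg5 and Pfkp (0.997 to 0.999), and for Tcf7 Atp2b4, Dpy19l3 and Rsad2 (0.994 to 0.996). For Tox they were Myo7a, Gbp7 and Rfx5 (0.993 to 0.996), for Eomes Lyz1, Timd4 and Serpina3n (0.988 to 0.996), and for Gata3 Emb, Jam3 and Unc45b (0.993 to 0.996). Bcl6 was followed most closely by Ppp4r3b (0.983), a phosphatase subunit, Grcc10 (0.977) and Gm42549 (0.974). No gene of the T cell list had an r over 0.9 with Bcl6, while 14 of the 20 had one with Tbx21.

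Each gene was next set against the T cell list, as log2(CPM + 0.5) minus the mean log2(CPM + 0.5) of the 20 T cell genes in the same tumor. On this scale Tcf7 was at -0.45, -0.72 and -0.28 in control tumors 1, 2 and 3 and at -0.80, -0.77 and -1.05 in IFN-γ tumors 1, 2 and 3. Every IFN-γ tumor lay below every control, by 0.39 on average (means -0.48 ± 0.22 and -0.87 ± 0.16, SD, n = 3 each). The two-sided exact permutation test gave p = 0.1, the smallest that 3 tumors against 3 allow, and an adjusted p of 0.787 over the 9 genes, so the difference fails the correction. Groups that do not overlap with the IFN-γ group lower were found on this scale in 1.12% of all genes tested. Subtracting the T cell mean, which was lowest in IFN-γ tumor 3, raises genes that do not follow T cells in that tumor. This share is therefore low by construction and does not measure how rare the Tcf7 pattern is. The nearest tumors, control tumor 2 at -0.72 and IFN-γ tumor 2 at -0.77, rest on 82 and 115 counts of Tcf7. The mean difference between the groups ran from -0.51 to -0.29 when each tumor was left out. Because the groups did not overlap, its sign could not turn, so this range adds no support. The difference was -0.30 without IFN-γ tumor 3. It was -0.45 against the 4 genes of the CD3 complex alone, which are themselves among the 20 T cell genes. Tcf7, required in naive and memory T cells, was the only one of the 9 whose groups did not overlap on this scale. Any gene without overlap gets this exact permutation p of 0.1, so 1 such gene among 9 does not stand out.

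Tox was at -1.09, -0.40 and -1.0 relative to the T cell list in the controls and at -0.34, -0.64 and -0.66 in the IFN-γ tumors. The groups overlapped through control tumor 2, and the difference was 0.28 (exact permutation p = 0.3, adjusted p = 0.787). Tbx21 and Stat4, which were variable in CPM, kept a nearly constant distance below the T cell list. The relative values of Tbx21 spanned 0.35 against 1.19 for the level itself, and those of Stat4 0.53 against 1.64, with differences of -0.043 and -0.17 between the groups (exact permutation p = 0.9 and 0.4). For Bcl6 and Gata3 the reverse held, since their relative values spanned 1.75 and 1.17 against 0.35 and 0.38 for the levels. Their levels varied little, so the wider spans mostly restate that of the subtracted T cell mean. That mean ran from 2.17 in IFN-γ tumor 3 to 3.68 in IFN-γ tumor 2. The differences of Eomes (0.17), Gata3 (-0.22), Bcl6 (-0.22), Runx3 (-0.22) and Prdm1 (-0.20) had exact permutation p-values from 0.4 to 0.7. With IFN-γ tumor 3 left out, Bcl6 was at -0.70 and Runx3 at -0.51 on this scale, and without IFN-γ tumor 2 they were at 0.17 and 0.00028.

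**Figure D4:**
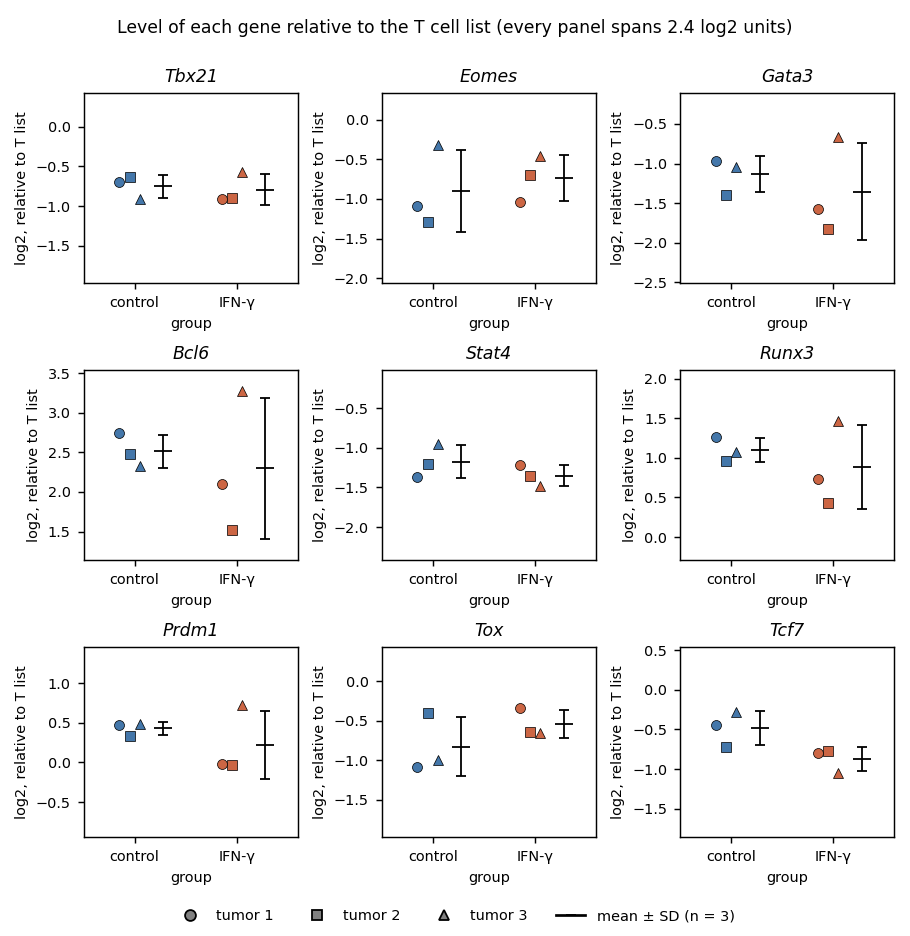
Level of each gene relative to the mean of 20 T cell genes (log2 scale) in the 3 control and 3 IFN-γ tumors, all panels spanning the same height; symbols mark the tumor number and black bars the mean ± SD of 3 tumors. Only the Tcf7 panel has groups that do not overlap, with the IFN-γ tumors between -1.05 and -0.77 and the controls between -0.72 and -0.28. This difference fails the correction over the 9 genes.

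The levels of different genes can be compared only per length, and were divided by the merged exon length of each gene in GENCODE M21. Bcl6 was the highest, at 6.14 ± 0.59 CPM per kilobase over the 6 tumors (SD, n = 6), followed by Runx3 at 3.03 ± 0.39, and no tumor overlapped between these 2 genes. Tcf7 (1.81 ± 0.70), Tbx21 (1.71 ± 0.58) and Prdm1 (1.70 ± 0.33) came next and did not differ beyond their spread, and Prdm1 and Eomes overlapped too. The lowest were Eomes (1.03 ± 0.47), Stat4 (0.775 ± 0.336), Gata3 (0.709 ± 0.085) and Tox (0.643 ± 0.338), again within their spread of each other. Runx3 and Tcf7, neighbours in this order, also overlapped, with tumors from 2.38 to 3.38 and from 0.635 to 2.67 CPM per kilobase.

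On GRCm38, the build named mm10 in the submitters' processing notes, the genes are protein-coding and lie on 7 chromosomes. Tbx21 spans chr11:97098071-97115331 and Tcf7 spans chr11:52252371-52283014, both on the minus strand. Stat4 lies on the plus strand of chr1:51987148-52107189, Eomes on the plus strand of chr9:118478212-118486132 and Runx3 on the plus strand of chr4:135120652-135177990. Tox lies on the minus strand of chr4:6686353-6991557, Bcl6 of chr16:23965052-23988852, Prdm1 of chr10:44437177-44528501 and Gata3 of chr2:9857078-9890034. The strand setting of the counting is not given in the sources used here, so reads over shared exons are uncertain. Stat4 shares 1033 exon bases with Gm28177, which had 0 to 6 counts per tumor, and Eomes shares 118 bases with the antisense gene Gm33460, which had 18 to 39. The other overlapping genes, near Gata3, Bcl6 and Tox, had at most 2 counts in any tumor.

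The surrounding pathways were described with 9 lists written from general knowledge, by counts and medians. Of 40 other lymphocyte transcription factor genes tested, 1 fell and none rose in all 6 tumors (edgeR, adjusted p under 0.05), where 0.0331% of all genes fell and 0.0794% rose. That gene was Nfil3, a bZIP repressor needed for NK cell and innate lymphocyte development and also tied to the circadian clock. It was at 29.9 ± 2.21 CPM in the controls and 11.7 ± 0.86 CPM in the IFN-γ tumors (SD, n = 3 each), with a change of -1.36 on the log2 scale (SE 0.11, adjusted p = 0.0043, edgeR). At an unadjusted p under 0.05, which 10.2% of all genes had in either direction, 4 genes of this list were higher and 2 lower. The median log2 fold change was 0.12, against 0.0015 over all genes. Without IFN-γ tumor 3 the change of Nfil3 was -1.42 (adjusted p = 0.0027, edgeR). With all 6 tumors, Ahr, the aryl hydrocarbon receptor gene, was at -0.54 (adjusted p = 0.145, edgeR) and Batf, an AP-1 factor of effector T cells, at 0.57 (adjusted p = 0.477).

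In the other 8 lists no gene passed in all 6 tumors. The median log2 fold change was 0.33 for the T cell list, with 19 of 20 genes above 0. None of them had an unadjusted p under 0.05, against 10.2% of all genes. Cd3d, an invariant chain of the T cell receptor complex, was at 4.87, 5.80 and 4.96 CPM in the controls and at 8.12, 11.1 and 2.10 CPM in the IFN-γ tumors. Cd3e was at 4.56, 7.09 and 7.08 CPM in the controls and at 9.91, 9.94 and 3.27 CPM in the IFN-γ tumors. Their log2 fold changes were 0.45 and 0.30, those of the coreceptor genes Cd8a and Cd4 were 0.59 and 0.14, and those of Cd6, Trac and Cd8b1 were 0.70, 0.61 and 0.59. Cd3d, Cd3e, Cd4 and Cd8a were lowest in IFN-γ tumor 3, as were Tbx21 and Stat4, and Cd8b1 was lowest in control tumor 1.

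The median was 0.32 for type 1 cytokines and their receptors (17 tested, 3 higher at an unadjusted p under 0.05) and 0.48 for type 1 effector targets (16 tested, 0 at that level). Over all genes tested, 10.2% were at that level in either direction. Ifng, the cytokine that T-bet and STAT4 induce, gave 7, 13 and 23 counts in control tumors and 27, 41 and 5 counts in IFN-γ tumors 1, 2 and 3 (log2 fold change 0.81, SE 0.67, adjusted p = 0.747, edgeR). The effector targets Ccl3, a chemokine, Ccl4, its neighbour, and Cxcr6, a chemokine receptor, were at 0.75, 0.72 and 0.72. In the list of cytokine inputs, the IL-12 receptor gene Il12rb1 was at 0.61. For type 2 genes the median was -0.14 over 9 genes tested, with Il33 at 0.90, Ccr3 at -0.63 and Areg at -0.44. The follicular helper list, which BCL6 governs, had a median of 0.14 over 13 genes, with Cxcl13, a chemokine that draws B cells, at -1.51 (adjusted p = 0.392), Cxcr5, its receptor, at -0.82 and Sh2d1a at 0.75.

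For the naive and memory genes that share the Tcf7 program, the median was 0.095 over 14 genes tested. S1pr1, which lets lymphocytes leave tissue, was at -0.52 (adjusted p = 0.262, edgeR) and Klf2, which induces it, at 0.49. Both are values of whole tumors, and the part of cells other than T cells in them was not tested. The exhaustion and residency list, which goes with Tox, had a median of 0.45 over 17 genes. At an unadjusted p under 0.05, which 10.2% of all genes had in either direction, 5 were higher and 1 lower. Rgs1, a regulator of G protein signaling, was at 1.07 (adjusted p = 0.299, edgeR), Havcr2, encoding the inhibitory receptor TIM-3, at 0.87 (adjusted p = 0.222) and Cd160 at 0.74. For the family relatives of the 9 genes the median was -0.032 over 24 genes, with Tbx2 at -0.75 and Stat2 at 0.45.

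Without IFN-γ tumor 3, 12 genes of the 9 lists rose and 2 fell, where 2.46% of all genes rose and 0.723% fell. The exhaustion and residency list held 5 of the 12, Rgs1, Havcr2, Pdcd1, Cxcr6 and Entpd1, with log2 fold changes from 0.73 to 1.26 and adjusted p from 0.026 to 0.046 (edgeR). In that fit Stat2, Cd6, Ikzf1, Il33, Ccl4 and Gzmb were among the others that rose, and Nfil3 and Ahr fell. None of the 9 transcription factor genes was among them. Rgs1, Havcr2 and Entpd1 are also expressed by macrophages, and 6 of 9 macrophage markers rose in the same fit (median log2 fold change 0.61), whose part in the rise of these genes was not tested. The medians were 0.64 for the exhaustion list, 0.66 for the T cell list, 0.83 for type 1 effector targets and 0.39 for the 9 genes. Over all genes tested there the median was -0.016. IFN-γ tumor 3 stood apart through its low T cell level, so leaving it out raises the medians of T cell genes by itself.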

How the data were processed

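The deposited table holds the raw counts that the authors made of the reads on each gene, 1 column per tumor. The submitters' processing notes name HISAT2 and mm10, and the counter, annotation and strand setting are not given in the sources used here. Samples were grouped by their titles. From the counts, levels were computed as CPM (TMM factors). Groups were compared by the quasi-likelihood test of edgeR 4.0.16 in R 4.3.3 after filterByExpr had removed low genes, and p-values were adjusted by the Benjamini-Hochberg method over all genes, with a threshold of 0.05. A standard error is the size of the log2 fold change divided by the square root of F. Levels relative to 20 T cell genes (pseudocount 0.5 CPM) were compared by exact permutation. Alternatives were DESeq2 1.42.0, limma-voom (limma 3.58.1), other factors, filters and thresholds, a replicate block and leaving out each tumor. The genes and lists were chosen with earlier results of these data known. List genes were named where they passed the threshold, otherwise the 3 of largest change, with Cd3d, Cd3e, Cd4, Cd8a and Ifng always named. Cxcr6, Ahr and other genes past the threshold only without IFN-γ tumor 3 were named after their values were seen. Some genes that this rule names are not reported here. No 2 libraries were identical, with correlations of log2 levels from 0.980 to 0.993. All 9 identifiers were in GENCODE M21, as were 99.4% of the table's.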

Additional observations from a re-analysis of the deposited data

How the results depend on the processing

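The count of the 9 genes past the threshold was 0 in every fit run, with the smallest adjusted p, 0.180, for Tox without IFN-γ tumor 3. Over all genes, 12 rose and 5 fell in the 6 tumors. Leaving out 1 tumor at a time gave from 4 to 381 higher and from 2 to 112 lower, with the largest counts without IFN-γ tumor 3. DESeq2 gave 121 and 67, no filter on low counts 150 and 70, an adjusted p under 0.1 31 and 12, and the replicate block 5 and 2. Library size only gave 7 higher and limma-voom 3 lower. For the 9 pathway lists together (0 higher and 1 lower), DESeq2 gave 2 and 2, no filter on low counts 3 and 3, and leaving out 1 tumor from 0 to 12 higher and from 1 to 2 lower. Apart from the tumors left out, the cause was not tested. Log2 fold changes near 0 changed sign. Gata3 was at -0.030 with library size only, -0.0074 with upper-quartile factors, -0.0036 with a minimum of 1 CPM in 3 tumors, -0.0023 with limma-voom and -0.00045 with the replicate block. Bcl6 was at -0.031, -0.0069 and -0.0025 with the first 3 of these. Runx3 was at -0.019 with library size only, -0.0022 with limma-voom and -0.00055 with the replicate block. Leaving out 1 tumor at a time, the ranges were -0.034 to 0.55 for Tbx21, -0.074 to 0.11 for Gata3, -0.063 to 0.097 for Bcl6, -0.13 to 0.59 for Stat4, -0.069 to 0.15 for Runx3, -0.16 to 0.22 for Prdm1 and -0.40 to 0.39 for Tcf7. Relative to the T cell list they were -0.15 to 0.018 for Tbx21, -0.029 to 0.46 for Eomes, -0.57 to 0.016 for Gata3, -0.70 to 0.17 for Bcl6 and -0.51 to 0.00028 for Runx3. Of 117 comparisons of the log2 fold changes, 88 kept direction and side of the threshold and 29 turned sign. The deviations of same-numbered tumors from their group means had correlations of -0.24, -0.0047 and -0.22, so no shared deviation was seen. These correlations cannot settle whether the replicate numbers pair the tumors, and the labels do not say. With 18 to 134 counts per tumor for Stat4, Tcf7, Tox, Eomes, Gata3 and Tbx21, counting error limits the precision of these genes.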

Other observations

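Ratios between genes of opposed or related roles were taken from the counts of the same tumor, and the pairs were chosen after the counts were seen, so no test was made. Tcf7 had 1.68, 0.788 and 1.74 counts per count of Tox in control tumors 1, 2 and 3 and 0.709, 0.906 and 0.711 in IFN-γ tumors 1, 2 and 3. Control tumor 2 lay among the IFN-γ tumors, so the groups overlapped. Tbx21 had from 1.11 to 1.81 counts per count of Gata3 in the control group, against 1.67, 2.06 and 1.08 in the IFN-γ group. The ratio of Tbx21 to Eomes was 1.38, 1.67 and 0.633 in the control group, against 1.10, 0.868 and 0.911 in the IFN-γ group. Prdm1 had 0.197, 0.218 and 0.270 counts per count of Bcl6 in the control group, against 0.221, 0.333 and 0.161 in the IFN-γ group, again with overlap.

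Markers of the other cells that can use these factors were summed in the same way. Macrophage markers summed to between 2091 and 2319 CPM in the controls and to 2998, 3283 and 2217 CPM in IFN-γ tumors 1, 2 and 3. Dendritic cell markers summed to between 190.1 and 232 CPM in the controls and to 243, 253 and 218 CPM in the IFN-γ tumors. B cell markers summed to between 66.6 and 105 CPM in the controls and to 117, 125 and 54.9 CPM in the IFN-γ tumors. The sum does not stand for most of these markers, since only 2 of the 6 tested had a log2 fold change above 0. Their median was -0.48, and -0.51 without IFN-γ tumor 3. Plasma cell markers summed to between 158 and 185 CPM in all 6 tumors, most of it from the broadly expressed Xbp1 (104 to 125 CPM) and Sdc1 (33.4 to 39.5 CPM). Jchain, the joining chain of antibodies, was at 3.50, 12.2 and 6.11 CPM in the controls, against 7.82, 7.63 and 1.61 CPM in the IFN-γ group. Type 2 innate and mast cell markers were at 627, 552 and 475 CPM in the controls and at 486, 486 and 644 CPM in the IFN-γ tumors. Neutrophil markers were between 29.7 and 38.0 CPM in the controls and between 36.8 and 47.6 CPM in the IFN-γ tumors. Adipocyte markers, whose cells also express Bcl6, summed to 106, 105 and 148 CPM in the control group, against 150, 204 and 168 CPM in the IFN-γ group, with most of each sum from Fabp4 (90.9 to 140 CPM). The median of their log2 fold changes was 2.17 over 8 genes, none of which passed the threshold with all 6 tumors, beside 0.0032 for Bcl6. Their part in the levels of the 9 genes was not tested.

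Of the structural cells, endothelial markers summed to between 241 and 307 CPM in the controls and between 200 and 259 CPM in the IFN-γ tumors. Fibroblast markers lay between 2752 and 3920 CPM in all 6 tumors, and skeletal muscle markers between 147 and 945 CPM with the highest value in control tumor 3. Epithelial and colon carcinoma markers summed to 283 CPM in IFN-γ tumor 3, against 123 to 187 CPM in the other 5 tumors.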
